A study of Homo sapiens with 4 samples.

Results

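The genes described here make, bind, sense and degrade retinoic acid, and were followed in human cells after knockdown of KLF11. They are 10 genes picked by name from a table of 57905 gene identifiers: the retinal dehydrogenases ALDH1A1, ALDH1A2 and ALDH1A3, the hydroxylase CYP26A1, the nuclear receptors RARA, RARB, RARG and RXRA, and the binding proteins CRABP1 and CRABP2. Each of the 10 names matched 1 row. No measured value was used to choose them, although they were chosen with earlier results of these data known. Polyadenylated RNA was sequenced from cells labelled as MG63, a line grown from a human bone tumour (osteosarcoma) and kept in serum-containing medium. Each of 2 groups held 2 libraries, made 48 hours after transfection. The control group received a control siRNA, and the knockdown group an siRNA to KLF11, a Krüppel-like zinc finger transcription factor. The groups otherwise share the line and the culture. No label says that the replicates of a group were separate cultures, so a p-value here reflects the spread between 2 libraries that may differ for technical reasons alone. Values are FPKM, fragment numbers scaled to gene length and library size, and are given in replicate order.

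Retinoic acid is made from vitamin A in steps. Retinol dehydrogenases such as RDH10 turn retinol into retinal, and the ALDH1A enzymes oxidise retinal irreversibly to retinoic acid. The acid is carried in the cytoplasm by CRABP1 and CRABP2, acts in the nucleus through heterodimers of a retinoic acid receptor (RAR) and a retinoid X receptor (RXR), and is cleared by CYP26 enzymes. CYP26A1 and RARB are also textbook retinoic acid targets, and are often read as outputs of the signal as well as parts of it. Retinoic acid itself was not measured here, so their levels are not taken as a measure of the signal. High ALDH activity is widely used to sort stem-like cells from tumours, and the series title is about such cells in sarcoma.

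The siRNA target and the cell label were checked before the retinoid genes. KLF11 was at 12.3 and 12.4 FPKM in the control libraries against 5.49 and 6.74 FPKM after knockdown (log2 change -0.92, SE 0.139, adjusted p = 0.00951, limma). The summed FPKM per library ran from 577849 to 604498, and the read depth is unknown, because FPKM holds no counts. The markers went against the label MG63 in part, as pluripotency, endoderm and epithelial markers were abundant. The osteoblast factor SP7 stayed at or below 0.04 FPKM, and RUNX2 went from 0.03 and 0.02 FPKM to 0.60 and 0.65 FPKM. The bone marker BGLAP stayed at or below 1.39 FPKM. On the other side, SPARC, VIM and COL6A1 were abundant, and were the highest of 19 mesenchymal and bone markers. Of these 19, however, 7 had a mean under 1 FPKM, and 4 were under 1 FPKM in every library. Among the 7, COL3A1 was at 0.01 and 0 FPKM and LUM at 0.11 and 0.04 FPKM in the controls. ALPL, counted here with the bone markers but not specific to bone, was at 100.8 and 88.95 FPKM in control libraries. After knockdown it was at 105.6 and 79.25 FPKM. Of 10 pluripotency markers all were tested (6 rose and 2 fell), led by POU5F1, TDGF1 and LIN28A. Of these leads POU5F1 rose, LIN28A fell and TDGF1 did not pass. The summed level of the 10 was 1538 and 1527 FPKM in control libraries against 2902 and 2430.0 FPKM after knockdown. POU5F1 alone went from 186 and 177 FPKM to 1364 and 1068 FPKM, and made up most of the rise in that sum. Of 12 endoderm markers 11 were tested (3 rose and 6 fell), led by CER1, EOMES and MIXL1, of which the last 2 rose and CER1 did not pass, and their sum was 5340.0 and 5318 FPKM in the controls but 1584 and 3404 FPKM after knockdown. Of 12 epithelial markers, led by KRT8, CLDN6 and KRT18, 1 rose and 9 fell, with a sum of 2729 and 2524 FPKM in control libraries against 1236 and 1490.0 FPKM after knockdown. Of 19 mesenchymal and bone markers 12 were tested (4 rose and 2 fell). Those that rose were VIM, THY1, PDGFRB and TWIST1, and those that fell were COL1A1 and COL6A1. The summed level of the 19 was 1643 and 1545 FPKM in control libraries against 2245 and 2294 FPKM after knockdown. VIM alone went from 144 and 131 FPKM to 808 and 800 FPKM, and made up most of the rise in that sum. None of 8 blood cell markers passed 0.6 FPKM. More endoderm and epithelial markers fell than rose, as with the retinoid genes below, whereas more pluripotency and mesenchymal markers rose than fell. The part of these marker changes in the retinoid results was not tested. In bulk RNA, fewer cells of a kind and less RNA per cell cannot be told apart.

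After KLF11 knockdown, 6 of the retinoid genes fell and 0 rose among the 8 that had a mean of at least 1 FPKM and were tested. ALDH1A1 and ALDH1A2 were under that filter. Of all 15320 tested genes, 21.7% fell, 13.5% rose and 35.2% were called in either direction (limma on log2(FPKM + 1), adjusted p under 0.05). The genes that fell were the clearing enzyme CYP26A1, the receptors RARB and RXRA, the synthesis enzyme ALDH1A3 and the carriers CRABP1 and CRABP2. RARA and RARG did not pass, and 0 tested members were higher at an unadjusted p under 0.05. The median log2 change of the 8 was -0.65, against -0.11 over all tested genes. Quantile normalization gave 6 lower and 1 higher, the latter being RARA. The control and KLF11 siRNA libraries did not overlap for 7 of the 8 genes, and did not overlap for 73.4% of all tested genes. The knockdown values were the lower ones for 6 of the 8 (44.5% of all tested genes) and the higher ones for RARA (28.9%). With either control library left out, limma called 0 of 15320 genes (4461 and 4793 genes had an unadjusted p under 0.05), so every call here rests on having both controls, while the 6 falls kept their sign.

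**Figure D1:**
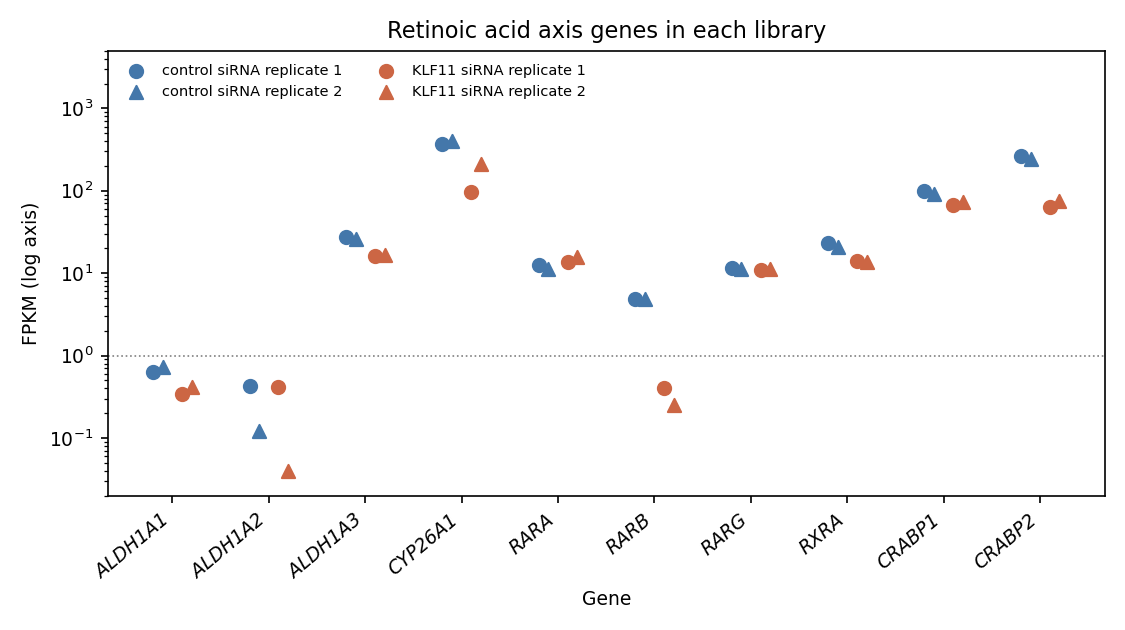
FPKM (log axis) of the 10 retinoic acid axis genes in each library, blue for control siRNA and orange for KLF11 siRNA, with circles for replicate 1 and triangles for replicate 2; the dotted line is the filter of 1 FPKM. CYP26A1 and CRABP2 lie highest in the controls, and RARB drops from near 5 FPKM to under 1 FPKM.

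The 10 genes differed in level by 3 orders of magnitude, as the plot of FPKM by library shows. In the controls CYP26A1 was highest, with a mean of 385 FPKM, above CRABP2 with 251, CRABP1 with 95.1, ALDH1A3 with 26.7 and RXRA with 21.8 FPKM. RARA and RARG followed with means of 12.0 and 11.3 FPKM and overlapping libraries, and RARB came next with 4.86 FPKM, above ALDH1A1 with 0.675 and ALDH1A2 with 0.275 FPKM. CYP26A1 stood at the 98.7th percentile of tested genes by control mean and CRABP2 at the 98th, whereas ALDH1A3 stood at the 74.8th. In the KLF11 siRNA libraries CYP26A1 still led, with a mean of 155 FPKM, and CRABP1 and CRABP2 overlapped at means of 69.8 and 69.1 FPKM. Lower in that order, the libraries of RARA overlapped those of RXRA, and those of RARB overlapped those of ALDH1A1 and ALDH1A2.

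Synthesis of retinoic acid was represented almost wholly by ALDH1A3 (ENSG00000184254). This isozyme was at 27.3 and 26.0 FPKM in the controls against 16.0 and 16.6 FPKM after knockdown. The groups lay apart, with means of 26.7 ± 0.912 and 16.3 ± 0.431 FPKM (SD, n = 2 each), a 1.64-fold fall (log2 change -0.68, SE 0.0951, limma adjusted p = 0.00809). ALDH1A1 (ENSG00000165092), the isozyme most often linked to ALDH activity in stem-like tumour cells, was at 0.63 and 0.72 FPKM in control libraries against 0.34 and 0.41 FPKM after knockdown. Its groups did not overlap, but every value was under 1 FPKM and no test was made. ALDH1A2 (ENSG00000128918), the main embryonic retinal dehydrogenase, was at 0.43 and 0.12 FPKM in control libraries against 0.41 and 0.04 FPKM after knockdown. The ALDH1A2 values overlapped between groups and differed more between replicates than between groups. ALDH1A3 made up 96.3% and 96.9% of the summed ALDH1A FPKM in the controls and 95.5% and 97.4% after knockdown. The sum itself went from 28.4 and 26.9 FPKM to 16.7 and 17.0 FPKM, so the isozyme makeup stayed within the spread of the libraries while the level was lower.

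Clearance rested on CYP26A1 (ENSG00000095596), which hydroxylates retinoic acid for disposal. It was at 371 and 398 FPKM in the controls against 96.1 and 214 FPKM after knockdown. The groups did not overlap, but replicate 1 of the KLF11 siRNA held 25.0% of the control mean and replicate 2 held 55.5%. The control mean of 385 ± 18.9 FPKM was 2.48-fold above the knockdown mean of 155 ± 83.2 FPKM (SD, n = 2 each; log2 change -1.42, SE 0.363, limma adjusted p = 0.0349). That call was lost with no filter (adjusted p = 0.128), without a variance trend (0.0566) and with robust estimation (0.0576), and the fitted log2 value ranged from -1.99, when KLF11 siRNA replicate 2 was left out, to -0.85, when replicate 1 was. The endoderm markers called lower had the same order of replicates, with replicate 2 above replicate 1 in 6 of 6. The epithelial markers called lower had it in 9 of 9, against 4 of 6 called retinoid genes. KLF11 had it too, at 5.49 and 6.74 FPKM. The share over all genes called lower was not counted, so this order cannot be called particular to any of these sets. The related enzymes CYP26B1 and CYP26C1 stayed at or below 0.23 and 0.05 FPKM in every library, so CYP26A1 supplied at least 99.7% of the summed CYP26 FPKM.

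RARB and CYP26A1 also share a sequence feature in their promoters. The RefSeq promoter table (GRCh38.p14, from 250 bases before to 50 after each annotated start) was searched on both strands for the receptor core hexamers AGGTCA or AGTTCA, or the variants GGTTCA or GGGTCA, which were found in 38.6% of all windows. A DR5, the direct repeat that RAR and RXR pairs classically bind, was counted where 2 of these hexamers lay on 1 strand with 5 bases between them. Of 35116 windows 31 held a DR5 (0.0883%). The 10 genes have 18 windows in that table. RARB and CYP26A1 were known as retinoic acid targets before the search. A match in them could thus be foreseen and is no test against the share of all windows. Of the 18 windows 2 held a DR5, 1 of RARB and 1 of CYP26A1. Both are printed (GRCh38.p14) with the 2 hexamers of the DR5 in capitals, because these 2 genes are classical retinoic acid targets and both fell:
RARB, chr3:25428013-25428262, plus strand: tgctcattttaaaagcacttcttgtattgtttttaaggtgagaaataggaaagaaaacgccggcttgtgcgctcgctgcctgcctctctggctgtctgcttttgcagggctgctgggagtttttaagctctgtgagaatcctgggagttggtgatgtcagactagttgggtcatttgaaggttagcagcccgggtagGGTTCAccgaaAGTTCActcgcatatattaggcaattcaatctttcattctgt
CYP26A1, chr10:93073797-93073826, plus strand: taaagaTGAACTttgggTGAACTaattgtc
The RARB match covers bases 53 to 37 before the start of the transcript RARB-203 and lies between exons of the longer RARB-202 (GENCODE 29). The CYP26A1 match is on the opposite strand, where it reads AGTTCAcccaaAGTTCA, at bases 90 to 74 before the start that RefSeq annotates, and within the first exon, untranslated, of CYP26A1-202. The shorter repeats DR1 and DR2, with 1 or 2 bases between hexamers, were found in 0.131% and 0.0399% of all windows and in 0 of the 18. The GC box GGGCGG, a motif of SP and KLF factors, was in 45.0% of all windows and in 10 of the 18. The RARB stretch also holds a single GGGTCA, left in lower case, at bases 83 to 78 before the start of RARB-203. A match is a run of letters and does not show that a receptor was bound.

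The genes with a DR5 in that window were then looked up. Of 29 such genes, RARB and CYP26A1 included, 17 were in the table and 8 were tested. Of these 8, 4 fell, 2 of them being RARB and CYP26A1, and 0 rose (also 0 at an unadjusted p under 0.05). The median log2 change of the 8, again with RARB and CYP26A1, was -0.76. Over all tested genes it was -0.11, and 21.7% fell and 13.5% rose. Named after their values had been seen, the others that fell were CFLAR, a caspase inhibitor, from 80.2 and 76.3 FPKM to 15.0 and 21.5 FPKM, and CYB5R2, a cytochrome b5 reductase, from 22.6 and 20.7 FPKM to 7.58 and 11.1 FPKM. ATXN1L, PANK2, PHF8 and PRSS27 did not pass. With 8 genes, of which 2 were chosen as retinoid genes, this count is a description and was given no test.

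The receptors did not move together. RARB (ENSG00000077092), the subtype whose gene is induced by its own ligand, was at 4.81 and 4.91 FPKM in the controls against 0.40 and 0.25 FPKM after knockdown. The groups were far apart, with means of 4.86 ± 0.0707 and 0.325 ± 0.106 FPKM (SD, n = 2 each), a 15.0-fold ratio and the largest log2 change of the 8 tested genes (-2.15, SE 0.182, limma adjusted p = 0.00335). Because the KLF11 siRNA values were under 1 FPKM, the log2 change depended on the pseudocount, at -3.57 with 0.1 and -0.89 with 5, and the call was kept with either. With a pseudocount of 5 the changes of CRABP2 (-1.79) and CYP26A1 (-1.39) were larger than that of RARB. RXRA (ENSG00000186350), the common partner of RARs, was at 23.0 and 20.6 FPKM in the controls against 14.2 and 13.5 FPKM after knockdown, again without overlap (1.57-fold fall, log2 change -0.62, SE 0.108, limma adjusted p = 0.0134). RARA (ENSG00000131759), the most widely expressed subtype, was at 12.6 and 11.4 FPKM in control libraries against 13.8 and 15.5 FPKM after knockdown. Its KLF11 siRNA libraries both lay above the controls, but the difference did not pass (log2 change 0.27, SE 0.121, limma adjusted p = 0.134), except with quantile normalization (log2 change 0.40, adjusted p = 0.0458). RARG (ENSG00000172819), the subtype prominent in skin, was at 11.5 and 11.1 FPKM in control libraries against 11.0 and 11.3 FPKM after knockdown, with overlapping groups and a log2 change of -0.02 (SE 0.108, limma adjusted p = 0.902) whose sign turned under median-of-ratios scaling, under quantile normalization and without control siRNA replicate 1.

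The makeup of the RAR transcripts differed more than their sum. Summed over the 3 subtypes, RAR FPKM was 28.9 and 27.4 in the controls and 25.2 and 27.1 after knockdown, where the nearest libraries of the groups, 27.4 and 27.1, were closer than the replicates of either group. RARB made up 16.7% and 17.9% of that sum in the controls and 1.59% and 0.924% after knockdown. The share of RARA was 43.5% and 41.4% in the controls and 54.8% and 57.4% after knockdown, and that of RARG was between 39.8% and 43.7% in all 4 libraries. The RXR sum, by contrast, went from 39.8 and 36.4 FPKM to 25.0 and 27.1 FPKM. RXRB was at 12.7 and 11.2 FPKM in control libraries against 9.79 and 11.0 FPKM after knockdown and did not pass (limma adjusted p = 0.298). RXRG was at 4.10 and 4.54 FPKM in control libraries against 0.93 and 2.67 FPKM after knockdown (log2 change -0.998, limma adjusted p = 0.067), a difference that passed with a pseudocount of 5 and with the replicate number as a block (limma adjusted p down to 0.0484), and also without KLF11 siRNA replicate 2 (0.00763).

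**Figure D2:**
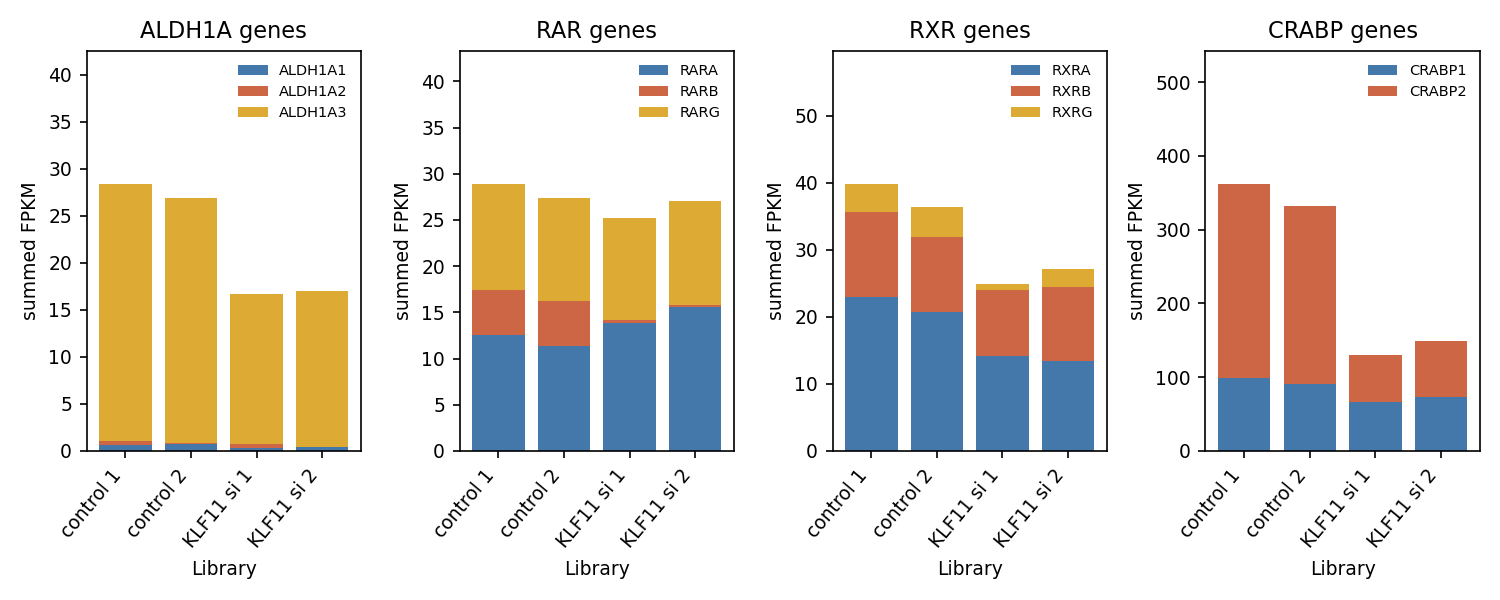
Stacked FPKM of the ALDH1A, RAR, RXR and CRABP genes in each library (linear axes from 0, one panel per family; control 1 and 2 are the control siRNA replicates, KLF11 si 1 and 2 the KLF11 siRNA replicates). ALDH1A3 fills nearly all of the ALDH1A bar, the RARB segment shrinks within a RAR bar of similar height, and the CRABP2 segment shrinks more than that of CRABP1.

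The carriers fell to different extents. CRABP2 (ENSG00000143320), which hands retinoic acid to the receptors in the nucleus, was at 263 and 240.2 FPKM in the controls against 62.7 and 75.6 FPKM after knockdown. Both knockdown libraries lay far below both controls, at 24.9% and 30.1% of the control mean, and the means of 251 ± 15.9 and 69.1 ± 9.13 FPKM (SD, n = 2 each) differed 3.64-fold (log2 change -1.85, SE 0.119, limma adjusted p = 0.00237). CRABP1 (ENSG00000166426), a cytoplasmic carrier linked to retinoic acid breakdown, was at 98.9 and 91.2 FPKM in the controls against 66.8 and 72.9 FPKM after knockdown. The CRABP1 groups also lay apart, with a smaller fall (1.36-fold, log2 change -0.44, SE 0.0929, limma adjusted p = 0.0211). That call was lost with no filter (adjusted p = 0.065), without a variance trend (0.0511) and without KLF11 siRNA replicate 1 (0.0582). The ratio of CRABP2 to CRABP1 FPKM was 2.65 and 2.63 in the controls and 0.939 and 1.04 after knockdown, so CRABP2 was the more abundant carrier in the controls and the 2 were about equal after knockdown. The 2 ratios of each group were closer to each other than to those of the other group. The ratio of the clearing enzyme CYP26A1 to the synthesis enzyme ALDH1A3 was 13.6 and 15.3 in the controls and 6.02 and 12.9 after knockdown, where the 2 libraries differed from each other more than replicate 2 differed from the controls.

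**Figure D3:**
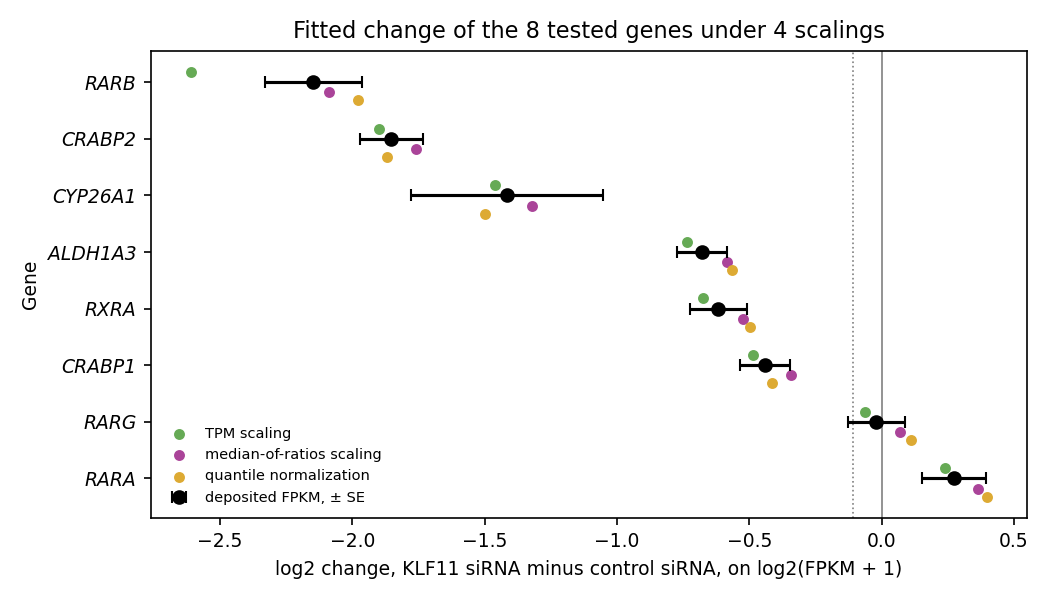
Fitted log2 change (KLF11 siRNA minus control siRNA) of the 8 tested genes: black points with bars are the limma estimate ± SE from the deposited FPKM, and coloured points the estimate after TPM, median-of-ratios or quantile scaling. The dotted line is the median change of all tested genes, -0.11; the 6 genes that fell stay left of it under each scaling, and RARG changes sign.

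Among tested genes the pattern nearest to that of RARB, the member with the largest change, was that of SHISA3, at 5.84 and 5.58 FPKM in control libraries against 0.65 and 0.47 FPKM after knockdown. RIPPLY3 (7.71 and 7.51 FPKM against 1.01 and 1.07 FPKM) and ATP12A (4.67 and 4.36 FPKM against 0.37 and 0.37 FPKM) came next. Likeness was the Euclidean distance of centred log2(FPKM + 1) values over the 4 libraries, which was 0.07, 0.17 and 0.20 for the 3 genes. With 2 libraries a group many genes that fell by a like amount must resemble each other on this measure.

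Of 36 genes of retinoid uptake, storage, retinol oxidation and clearance, 16 were tested, and 2 rose, 7 fell and 7 did not pass (median log2 change -0.36). Over all tested genes 13.5% rose and 21.7% fell. The 2 that rose stand at the start of the pathway. LRAT, which stores retinol as retinyl esters, went from 2.45 and 2.52 FPKM to 18.7 and 15.2 FPKM (6.82 times the control mean, limma adjusted p = 0.00237). RDH10, which oxidises retinol to the retinal that ALDH1A enzymes use, went from 3.59 and 4.83 FPKM to 27.4 and 16.7 FPKM (5.24 times the control mean, limma adjusted p = 0.00627). For both genes every KLF11 siRNA library lay above every control library. The retinol importer STRA6 and the cellular retinol carrier RBP5 fell, RBP5 from 4.05 and 4.32 FPKM to 0.68 and 0.88 FPKM. The short-chain dehydrogenases DHRS4 and DHRS7 and the alcohol dehydrogenase ADH5 fell by less, ADH5 from 202 and 206 FPKM to 153 and 148 FPKM. AKR1C3, an aldo-keto reductase that can reduce retinal, went from 5.40 and 5.02 FPKM to 0.88 and 1.57 FPKM, and its reads can be shared with near-identical AKR1C copies. RDH11, the most abundant retinol dehydrogenase tested, did not pass, at 47.4 and 44.7 FPKM in control libraries against 53.5 and 57.8 FPKM after knockdown (limma adjusted p = 0.0716), but was called higher with median-of-ratios scaling and quantile normalization. The calls of STRA6, DHRS4 and DHRS7 were lost with no filter, and that of STRA6 also with the replicate block.

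Of 16 further ALDH genes 10 were tested, and 1 rose, 2 fell and 7 did not pass (median log2 change -0.09), against 13.5% higher and 21.7% lower over all tested genes. ALDH6A1, a mitochondrial enzyme of valine and pyrimidine breakdown, fell from 18.8 and 19.1 FPKM to 6.03 and 7.89 FPKM, and ALDH2, which oxidises acetaldehyde, from 30.8 and 31.2 FPKM to 22.6 and 22.1 FPKM. ALDH4A1, an enzyme of proline breakdown, rose from 7.82 and 7.19 FPKM to 14.2 and 11.3 FPKM, a call lost with no filter (limma adjusted p = 0.0748) and without KLF11 siRNA replicate 1 (0.0545). ALDH7A1, which oxidises a product of lysine breakdown, was the most abundant, at 104 and 100 FPKM in control libraries against 117 and 118 FPKM after knockdown. ALDH3A2, which oxidises fatty aldehydes, was at 97.0 and 106 FPKM in the controls and 103 and 94.1 FPKM after knockdown, with overlapping groups. ALDH18A1, an enzyme of proline synthesis, was at 36.0 and 32.8 FPKM and then 31.6 and 30.3 FPKM. None of these 3 passed, except ALDH7A1 with median-of-ratios scaling (limma adjusted p = 0.0358).

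Of 16 genes of RXR and its partners, a carrier protein included, 9 were tested, and 1 rose, 4 fell and 4 did not pass (median log2 change -0.50). The shares over all tested genes were 13.5% higher and 21.7% lower. PPARA, a receptor for fatty acids, went from 5.04 and 5.74 FPKM to 1.06 and 1.61 FPKM (log2 change -1.46, limma adjusted p = 0.00722). The oxysterol receptor NR1H3 went from 14.4 and 13.3 FPKM to 4.66 and 7.26 FPKM, a call lost with no filter (limma adjusted p = 0.0664). The related NR1H2 (29.4 and 25.1 FPKM to 19.1 and 19.5 FPKM) and the orphan receptor NR4A1 (11.1 and 9.34 FPKM to 3.98 and 6.58 FPKM) also fell, but these calls were lost without a variance trend, with no filter, with the replicate block and without KLF11 siRNA replicate 1 (NR1H2 also with quantile normalization and without replicate 2). The gene that rose was FABP5, a fatty acid carrier that can bring retinoic acid to PPARD, from 87.5 and 104 FPKM to 218 and 182 FPKM (2.09 times the control mean, limma adjusted p = 0.00646). FABP5 has near-identical pseudogenes with which reads may be confused, which makes its FPKM uncertain. PPARD itself did not pass, at 6.16 and 5.14 FPKM in control libraries against 5.52 and 5.26 FPKM after knockdown.

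Of 21 cofactors of RAR, 19 were tested, and 1 rose, 5 fell and 13 did not pass (median log2 change -0.09), near the shares of 13.5% higher and 21.7% lower over all tested genes. The coactivators NCOA3, NCOA6 and NCOA1, the arginine methyltransferase CARM1 and the corepressor subunit TBL1XR1 fell by 0.42 to 0.66 on the log2 scale, NCOA3 the most, from 9.32 and 9.68 FPKM to 5.33 and 5.99 FPKM. TACC3 rose from 53.6 and 48.6 FPKM to 66.5 and 67.3 FPKM. Of these 6 calls, 4 lower calls (all but NCOA3) were lost under at least 4 of 10 alternatives that kept every library, the TACC3 call under 3 and that of NCOA3 under 1. Without KLF11 siRNA replicate 1 the NCOA3 call was kept and the other 5 were lost, and without replicate 2 those of TACC3 and NCOA1 were lost. CNOT1, the most abundant of the list, was at 98.1 and 94.9 FPKM in control libraries against 75.8 and 83.7 FPKM after knockdown and did not pass (limma adjusted p = 0.0655), except with TPM scaling (0.0442) and without KLF11 siRNA replicate 2 (0.0407).

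Of 35 genes known to respond to retinoic acid in other cells 11 were tested, and 3 rose, 3 fell and 5 did not pass (median log2 change -0.15), where 13.5% rose and 21.7% fell over all tested genes. The 13 HOX genes of the list were all under the filter. PLAT, the tissue plasminogen activator, went from 0.86 and 0.27 FPKM to 7.82 and 7.02 FPKM (log2 change 2.45, limma adjusted p = 0.00426), and the receptor tyrosine kinase RET from 3.53 and 3.18 FPKM to 17.4 and 16.2 FPKM. The transcriptional repressor BHLHE40 rose from 12.7 and 14.2 FPKM to 19.9 and 25.2 FPKM. The homeobox factor MEIS1 fell from 3.32 and 2.38 FPKM to 0.54 and 0.37 FPKM, and the adhesion receptor ICAM1 from 4.61 and 4.40 FPKM to 1.88 and 2.55 FPKM. The calls of ICAM1, MEIS1 and BHLHE40 were lost with no filter, and that of ICAM1 also without KLF11 siRNA replicate 1 (log2 change -0.633). LEFTY1, a Nodal antagonist and the most abundant of the list, was at 204 and 212 FPKM in control libraries against 39.3 and 123 FPKM after knockdown and did not pass (limma adjusted p = 0.0645), except with the replicate block (0.0362) and without KLF11 siRNA replicate 1 (0.0122) or replicate 2 (0.00139). LAMB1, a laminin chain, and RARRES2, the chemokine-like protein chemerin, did not pass either, LAMB1 at 69.7 and 67.3 FPKM in the controls and 56.7 and 59.4 FPKM after knockdown.

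**Figure D4:**
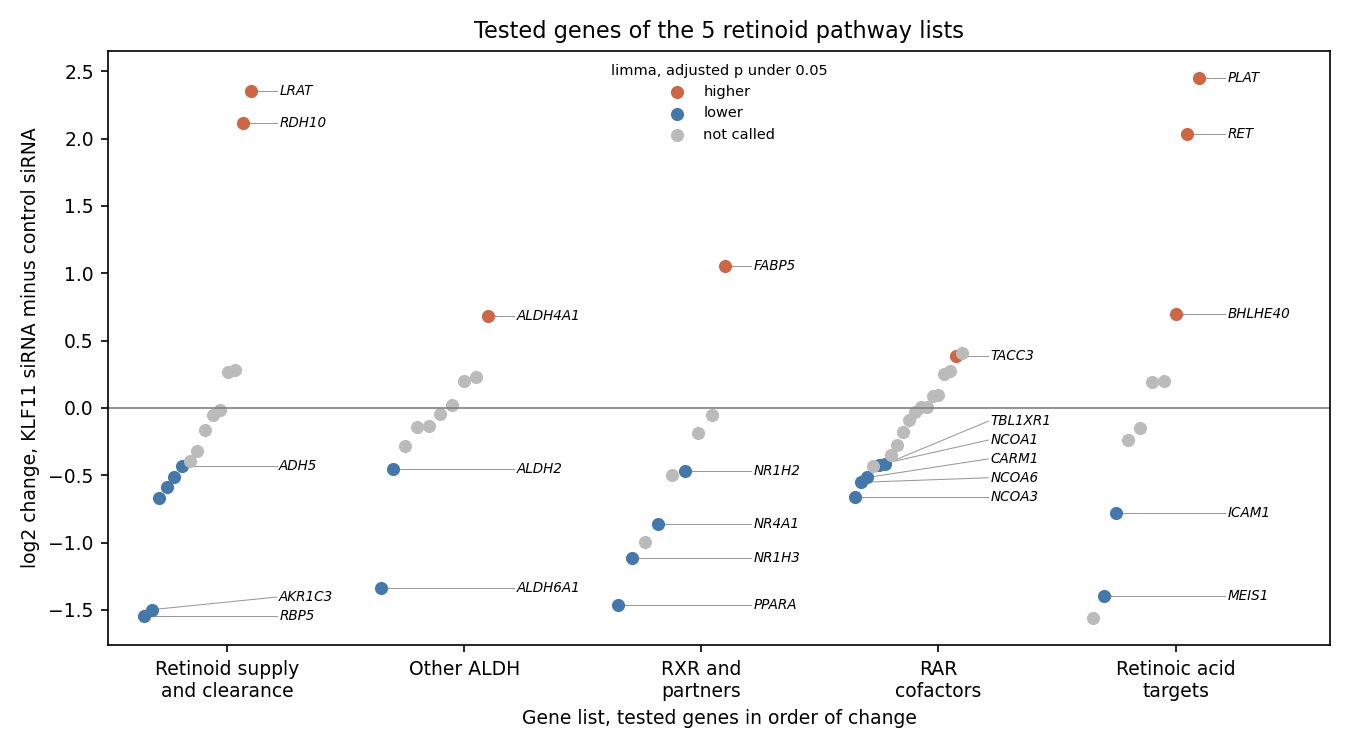
Log2 change (KLF11 siRNA minus control siRNA, on log2(FPKM + 1)) of the tested genes reported from the 5 pathway lists, in order of change within a list; orange and blue mark genes called higher and lower by limma and grey those not called. LRAT, RDH10, RET and PLAT lie above 2, while most other called genes lie below 0.

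Over the 5 lists together 65 genes were tested, of which 8 rose and 21 fell, with a median log2 change of -0.18. Median-of-ratios scaling gave 12 higher and 16 lower and quantile normalization 11 higher and 17 lower, so the balance of directions depends on the scaling. Over all genes the same step changed 2071 higher and 3329 lower into 2640 higher and 2769 lower with median-of-ratios scaling, and into 2657 higher and 2664 lower with quantile normalization, which moved the all-gene median from -0.11 to 0.0095 on the log2 scale. Of the 29 calls in the lists, 12 were kept under every one of the alternatives in which the gene was tested and all libraries were used, 5 higher (LRAT, RDH10, FABP5, RET and PLAT) and 7 lower (among them RBP5, ADH5, AKR1C3, ALDH2, ALDH6A1 and PPARA). These 12 were also called without either KLF11 siRNA replicate. None of the 29 changed sign in those fits.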

How the data were processed

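The authors deposited FPKM values with 2 decimals for each library. The submitters' processing notes name RSEM 1.3.1, Trim Galore 0.5.0 and build hg19 (GRCh37). The aligner, annotation release, strand setting and filters are not stated (not given in the sources used here). RSEM shares reads among similar transcripts, so genes with near-identical copies are uncertain, and overlapping genes cannot be separated without the strand setting.

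Columns were matched to samples by name (0 left unmatched). Genes with a mean of at least 1 FPKM over the 4 libraries were tested on log2(FPKM + 1) with limma 3.58.1 in R 4.3.3 (lmFit, eBayes with a mean-variance trend), as 2 groups without a block, with Benjamini-Hochberg adjustment over all 15320 tested genes and a threshold of 0.05. Folds are ratios of mean FPKM, and fitted changes understate low genes. No list was tested as a set. An exact permutation test of 2 against 2 cannot go below p = 0.333 and was not used.

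Members and gene lists were chosen with earlier results of these data known. Named were KLF11, all 10 members, the 3 genes nearest to the most changed member, and per pathway list up to 6 called genes by p and the 3 most abundant; STRA6, DHRS4, DHRS7, RXRG, PPARD and others were named after their values were seen. Of 127 names in the 5 lists 124 matched, and the others were not analysed here. A few listed genes count in the totals but are not reported here by name or drawn. Promoter windows come from RefSeq (GRCh38.p14), another build than that of the files. Alternatives were pseudocounts of 0.1 and 5, no filter, a filter of 5 FPKM, TPM, median-of-ratios and quantile scaling, no variance trend, robust estimation (statmod 1.5.0), the replicate block, and each library left out. Figures were drawn with matplotlib 3.10.9.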

Additional observations from a re-analysis of the deposited data

How the results depend on the processing

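Of the 6 retinoid genes that fell, RARB, CRABP2, ALDH1A3 and RXRA were called under every alternative that kept all libraries and in which the gene was tested, and all 6 kept their sign under every alternative. With quantile normalization 1 member was called higher. RARG had a log2 change of -0.02 in the main test and of 0.071 with median-of-ratios scaling, 0.11 with quantile normalization and, with 1 library left out, from -0.0411 to 0.0023. With no filter 34232 genes were tested, and 887 genes were called higher and 1251 lower. The pathway lists then had 5 higher and 8 lower. Both the variance fit and the adjustment took in the added genes, and their parts were not separated. With 1 library left out, the counts ran from 0 to 2291 higher and 0 to 3813 lower over all genes, from 0 to 6 lower for the members, with 0 higher throughout, and from 0 to 8 higher and 0 to 22 lower in the lists. The zeros came from leaving out either control library, when the spread rests on the KLF11 siRNA pair. The labels share replicate numbers 1 and 2 between the groups but do not say that a number marks a shared culture or day, and the correlation of the replicate differences between the groups was -0.07. With the replicate block 1707 genes were higher and 2644 lower, 6 members lower and 0 higher, and 7 list genes higher and 15 lower. The depth is unknown, so the precision of values under 1 FPKM, such as those of RARB with KLF11 siRNA, could not be given.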
